A study of Mus musculus with 4 samples.

Results

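The report covers 10 genes of the NF-kB pathway and of the response to tumour necrosis factor (TNF), taken by name from a table of 21899 rows of protein-coding genes in mouse subcutaneous white adipose tissue. They are the cytokines Tnf and Il6, the NF-kB subunits Nfkb1, Nfkb2 and Relb, the inhibitors and IkB-like proteins Nfkbia, Nfkbiz and Tnfaip3, and the adhesion molecules Icam1 and Vcam1. Each name matched 1 row. The libraries came from fat labelled as receiving an inhibitor of miR-203, a microRNA, and from fat labelled as negative control. There were 2 libraries a group, each a pool of RNA of 3 animals. The sources used here do not give strain, age, sex or the dose, route and duration of treatment, and they name no allele and no agent beside the inhibitor. The title of the series places miR-203 with cyclic AMP and interferon gamma in fat browning and glucose tolerance.

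NF-kB is a family of dimeric transcription factors. In resting cells IkB proteins hold the dimers in the cytoplasm. TNF, interleukin 1 and microbial products activate the IkB kinase complex, which leads to the breakdown of IkB and frees the dimers to enter the nucleus. A slower, alternative path through the kinase encoded by Map3k14 processes the Nfkb2 product and acts with RelB. The genes switched on include those for cytokines, for adhesion molecules that hold leukocytes to the vessel wall, and for the inhibitors that end the response. In fat, TNF and interleukin 6 come from macrophages, stromal cells and adipocytes, and TNF is known to impair insulin action in adipocytes.

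The sequence of the microRNA named in the labels is shown with the sites it pairs with, because the inhibitor is designed to block this pairing. The mature miR-203-3p is encoded on the plus strand of chromosome 12 at chr12:112130927-112130948 (GRCm38.p6, RefSeq), and its seed, bases 2 to 8, is in capitals.
miR-203-3p: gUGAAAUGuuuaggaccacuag
Of the 10 genes, 1 had a match to this seed (CATTTCA) in its longest annotated 3' untranslated region, against 2042 of 12172 tested genes with such a region, or 16.8%. That gene was Vcam1, with 2 matches. Both lay in 1 of its 2 annotated transcripts with a 3' untranslated region, at positions 714 and 1176 of a region of 1404 bases counted from the stop codon. Each is printed with the bases around it and the match in capitals.
Vcam1 match at position 714: agttagaagggCATTTCAgcgactttcaa
Vcam1 match at position 1176: tcaaaatatgtCATTTCAtccgagtctga
A match is a run of letters and does not show that the microRNA binds there.

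The regions before the transcript starts are shown because the genes are known for NF-kB sites. RefSeq windows were at hand for 6 of the 10 genes (Tnf, Il6, Nfkb2, Nfkbia, Tnfaip3 and Icam1). In the 250 bases before a start, on either strand, the NF-kB consensus of 10 bases occurred in 4 of these 6 genes, against 524 of 9339 tested genes with a window, or 5.61%. It occurred in 3.90% of all 32841 windows. The 4 genes were Il6, Nfkb2, Nfkbia and Tnfaip3. Positions are counted back from the base before the start, which is -1.
The Il6 window lies on the plus strand at chr5:30012864-30013113, with the NF-kB match (bases -44 to -35) in capitals.
Il6: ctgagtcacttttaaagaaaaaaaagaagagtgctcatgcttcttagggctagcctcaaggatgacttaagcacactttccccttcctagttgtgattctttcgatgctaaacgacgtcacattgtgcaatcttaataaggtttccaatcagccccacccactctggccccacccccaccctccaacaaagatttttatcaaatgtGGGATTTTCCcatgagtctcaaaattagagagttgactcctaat
The Nfkbia window lies on the minus strand at chr12:55492648-55492897, with the NF-kB match (bases -29 to -20), which reads as the consensus on the other strand, in capitals.
Nfkbia: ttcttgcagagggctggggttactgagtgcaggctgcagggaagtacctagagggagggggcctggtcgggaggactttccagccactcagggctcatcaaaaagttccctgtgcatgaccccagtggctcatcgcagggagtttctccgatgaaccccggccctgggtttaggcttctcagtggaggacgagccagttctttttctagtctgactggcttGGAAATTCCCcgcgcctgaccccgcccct
The first Nfkb2 window held 3 NF-kB matches, GGGAATTCCC and GGAATTCCCC, which overlap, and GGGGCTTTCC close to the start. The first Tnfaip3 window held GGGACACCCC and GGAAATCCCC. These matches describe the letters of the windows. No binding was measured.

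Values are FPKM, fragments scaled to transcript length and library size. Inhibitor libraries had 15487 and 15394 rows above 0 and control libraries 15587 and 15373, and the relative depth read from low values was 0.927 and 0.908 for the inhibitor libraries and 1.00 and 1.06 for the controls. Adipoq, which defines adipocytes, had 1095 and 997 FPKM in inhibitor libraries and 1255 and 1303 FPKM in control libraries, so the defining marker of the labelled tissue was abundant in all 4. Of 12345 rows that averaged 1 FPKM or more, limma called 397 higher and 33 lower in inhibitor libraries at an adjusted p under 0.05, and 326 higher and 92 lower after quantile normalization. Nothing in the labels says that the pools came from separate experiments, so the tests measure the spread between pools. All 10 genes passed the filter, Il6 only through its inhibitor values.

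Il6 was the 1 gene of the 10 that rose with the inhibitor at the threshold, an adjusted p under 0.05 (limma, Benjamini-Hochberg over all rows tested). It entered the test through its inhibitor values, since its control mean of 0.816 FPKM was below the filter of 1 FPKM. The background was 3.22% of tested rows called higher and 0.267% called lower. Limma called 0 of the 10 lower and gave 0 of them a negative fold change. Both inhibitor values lay above both control values for 9 of the 10 genes, against 33.1% of tested rows, and the exception was Vcam1. The 95% interval of the log2 fold change lay above 0 for 7 genes, against 13.4% of tested rows, and included 0 for Relb, Nfkbia and Vcam1. The median log2 fold change of the 10 genes was 0.59, or 1.51-fold, against 0.07 for all tested rows. These shares are descriptive, since the genes were chosen with earlier results of these data known. All fold changes are differences of log2(FPKM + 1), and this scale makes the change of a low gene look smaller.

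**Figure D1:**
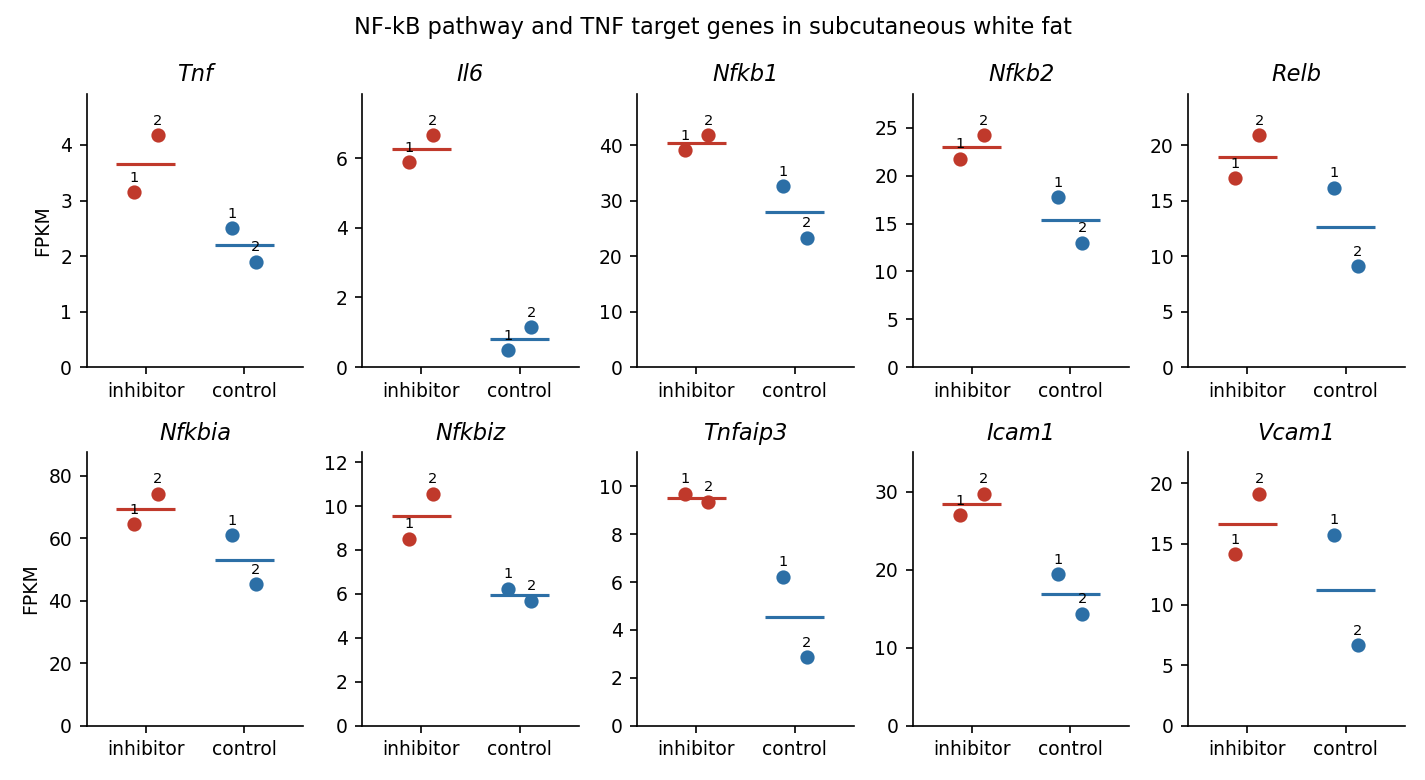
FPKM of each of the 10 genes (vertical axis, from 0) in the inhibitor libraries (red) and control libraries (blue). Points are libraries with their number and lines are group means. The groups are apart in every panel but that of Vcam1, and control 2 is the lowest library in every panel but that of Il6.

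Among the cytokines, Il6 encodes interleukin 6, which acts on liver, muscle and immune cells and is a classic NF-kB target. It had 5.88 and 6.65 FPKM in the inhibitor libraries and 0.486 and 1.15 FPKM in the control libraries. The groups were far apart, with each inhibitor value more than 5 FPKM, and 1 control value was below 1 FPKM. The means were 6.27 ± 0.549 FPKM in inhibitor libraries and 0.816 ± 0.467 FPKM in control libraries (SD, n = 2 each), a ratio of 7.68. On the log2(FPKM + 1) scale the difference was 2.02 ± 0.24 (SE, adjusted p = 0.0174), with a 95% interval of 1.43 to 2.62. It was the 34th largest positive change of the rows tested, and with a pseudocount of 0.1 FPKM it was 2.89. The call ended without inhibitor 1 (adjusted p = 0.148), without inhibitor 2 (adjusted p = 0.225) and with no filter on low values (adjusted p = 0.0616), and over all 10 alternatives that tested Il6 the adjusted p ran between 0.00680 and 0.225. No row of the table passed without either inhibitor library. Its promoter window is printed above, and those of Nfkb2, Nfkbia and Tnfaip3, which were not called, also held an NF-kB match.

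Tnf encodes the cytokine that gives the response its name, made mainly by macrophages and lymphocytes. It had 3.15 and 4.17 FPKM in inhibitor libraries and 2.50 and 1.90 FPKM in control libraries. It was the lowest of the 10 genes in inhibitor libraries and the second lowest in control libraries, where Il6 was lower. The groups did not overlap, and the difference of 0.54 ± 0.20 on the log2 scale did not pass (adjusted p = 0.243). The ratio of means was 1.67.

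The subunits were among the more abundant of the 10. Nfkb1 encodes the precursor of p50, the DNA-binding subunit that pairs with RelA. Its level was 39.1 and 41.8 FPKM in inhibitor libraries and 32.6 and 23.3 FPKM in control libraries, a log2 difference of 0.53 ± 0.17 (adjusted p = 0.185). Nfkb2 encodes the precursor of p52, the subunit of the alternative path, and had 21.8 and 24.2 FPKM in inhibitor libraries and 17.7 and 13.0 FPKM in control libraries. Its difference was 0.56 ± 0.17 (adjusted p = 0.166). Relb, whose product pairs with p52, had 17.0 and 20.9 FPKM in inhibitor libraries and 16.2 and 9.11 FPKM in control libraries, a difference of 0.59 ± 0.27 (adjusted p = 0.316). The 3 differences were of like size, and for Relb control 1 came within 1 FPKM of inhibitor 1. None of the 3 passed. Nfkb2 shares 299 bases with Psd and 1292 bases with a non-coding gene, both on the other strand, and Nfkb1 shares 3897 bases with the transcript model Gm43430 on its own strand, so some reads could belong to either.

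The inhibitors and IkB-like proteins followed the same order of groups. Nfkbia encodes IkB alpha, which holds NF-kB in the cytoplasm and is itself induced by NF-kB. It was the most abundant of the 10 genes in both groups, at 64.5 and 74.2 FPKM in inhibitor libraries and 60.9 and 45.2 FPKM in control libraries. Its difference of 0.39 ± 0.17 was the smallest of the 10 (adjusted p = 0.283), and control 1 lay near inhibitor 1. Nfkbiz encodes IkB zeta, a nuclear partner of p50 needed for a second wave of targets that includes Il6. It had 8.52 and 10.6 FPKM in inhibitor libraries and 6.23 and 5.69 FPKM in control libraries, a difference of 0.59 ± 0.16 (adjusted p = 0.129). Its control values lay close together and well below both inhibitor values. Tnfaip3 encodes A20, a ubiquitin-editing enzyme that shuts off signalling from the TNF receptor. It had 9.69 and 9.36 FPKM in inhibitor libraries and 6.23 and 2.86 FPKM in control libraries. The difference of 0.99 ± 0.31 was the second largest of the 10 (adjusted p = 0.176), and control 2 had 46.0% of the level of control 1.

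The adhesion molecules differed in how well their groups were separated. Icam1 encodes a ligand of leukocyte beta-2 integrins on endothelium and other cells. It had 27.0 and 29.7 FPKM in inhibitor libraries and 19.4 and 14.3 FPKM in control libraries, a difference of 0.73 ± 0.17 that came nearest to the threshold among those that missed it (adjusted p = 0.0962). Vcam1 encodes a ligand of the integrin alpha-4 beta-1 and is made by activated endothelium, stromal cells and macrophages. It had 14.1 and 19.1 FPKM in inhibitor libraries and 15.8 and 6.66 FPKM in control libraries. The groups overlapped, since control 1 was above inhibitor 1, and the difference of 0.62 ± 0.39 did not pass (adjusted p = 0.437). Without control 2 it was 0.06. Vcam1 is also the gene with the seed matches printed above. Icam1 shares 511 bases and Vcam1 shares 1238 bases with antisense genes, and no source used here states whether fragments were assigned by strand.

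The genes lie on 9 chromosomes of GRCm38 (mm10), with Nfkb1 and Vcam1 both on chromosome 3 but far apart. On the plus strand are Il6 (chr5:30013114-30019981), Icam1 (chr9:21015985-21028817) and Nfkb2 (chr19:46304320-46312385). On the minus strand are Tnf (chr17:35199381-35202007), Nfkb1 (chr3:135584655-135691547), Vcam1 (chr3:116109949-116129688), Relb (chr7:19606217-19629438), Nfkbia (chr12:55489410-55492647), Nfkbiz (chr16:55811375-55838899) and Tnfaip3 (chr10:19000910-19015657). The table gives 1 value a gene, so exons and transcripts are not told apart.

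The order of levels, which FPKM allows between genes, was close in the groups. In inhibitor libraries it ran Nfkbia, Nfkb1, Icam1, Nfkb2, Relb, Vcam1, Nfkbiz, Tnfaip3, Il6 and Tnf, and the ranges of neighbours overlapped for Relb with Vcam1 and for Nfkbiz with Tnfaip3. In control libraries it was the same down to Tnfaip3, and then Tnf stood above Il6. There the ranges of neighbours overlapped for Icam1 with Nfkb2, Nfkb2 with Relb, Relb with Vcam1 and Nfkbiz with Tnfaip3.

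**Figure D2:**
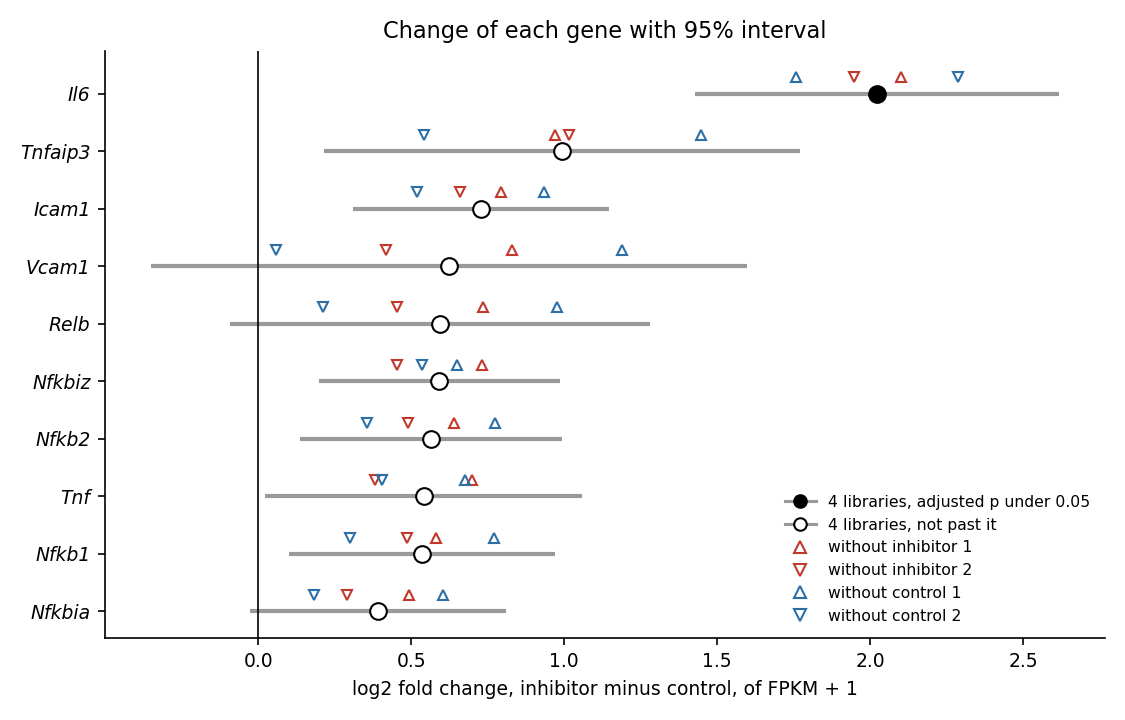
Log2 fold change of each gene, inhibitor minus control, on the log2(FPKM + 1) scale (horizontal axis) with its 95% interval (grey line). The filled circle passed the threshold, open circles did not, and triangles give the value with 1 library left out. The Vcam1 value is 0.06 without control 2 and 1.19 without control 1, while that of Il6 is 1.76 or more.

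The libraries of a group were not alike for these genes. Control 2 was below control 1 for 9 of the 10 genes, against 57.5% of tested rows, and inhibitor 2 was above inhibitor 1 for 9 of the 10, against 52.4%. The exceptions were Il6 in the controls and Tnfaip3 in the inhibitor libraries. Control 2 had 42.3% of the level of control 1 for Vcam1, 56.4% for Relb and 91.3% for Nfkbiz. Without control 1, limma called 7 of the 10 genes higher, against 5.57% of tested rows in the same fit, with Tnf, Nfkbia and Nfkbiz the ones not called. In that fit control 2 stands alone and is assumed to vary like the inhibitor pair. Without control 2 limma called 1, Il6. The log2 fold change was then 0.54 for Tnfaip3, 0.36 for Nfkb2, 0.30 for Nfkb1, 0.21 for Relb and 0.18 for Nfkbia, each more than 1.5 times smaller than with both controls. Every one of the 108 values over 11 alternatives was positive, but most could not have been otherwise. The filters, the trend and the block leave a fold change as it was. Where both inhibitor values lie above both control values, neither the pseudocount nor leaving out 1 library can turn its sign.

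Control 2 also had the lowest summed levels of lymphocyte markers. The 10 markers of B cells and lymph node summed to 215.0 and 234.0 FPKM in inhibitor libraries and to 413.8 and 62.0 FPKM in control libraries, with 0 of 9 tested past the threshold in limma (0 at an unadjusted p under 0.05). The 10 markers of T and NK cells summed to 111.1 and 145.2 FPKM in inhibitor libraries and to 83.1 and 33.0 FPKM in control libraries, and 3 of 10 rose (Gzmb, Prf1 and Klrb1c). The 7 markers of neutrophils summed to 113.6 and 103.0 FPKM in inhibitor libraries and to 66.0 and 55.0 FPKM in control libraries, with 0 of 5 tested called by limma (3 higher and 0 lower at an unadjusted p under 0.05). The 3 were S100a8, S100a9 and Csf3r. For neutrophils and for T and NK cells both inhibitor sums lay above both control sums. Among single T and NK markers this held for 4 of 10, Klrb1c, Ncr1, Gzmb and Prf1. Cd3d, Cd3e, Cd3g, Cd4, Cd8a and Cd8b1 overlapped between groups. Gzmb had the largest group difference of that list, at 35.7 and 43.7 FPKM in inhibitor libraries and 6.73 and 7.89 FPKM in control libraries. Ly6g, which defines neutrophils, was below the filter, at 0.545 and 0.189 FPKM in inhibitor libraries and 0 in both controls. Mpo, also below the filter, was listed at 0 in inhibitor 2 and control 2. In bulk tissue, fewer cells of a type and less RNA per cell cannot be told apart, and the part of these cells in the differences was not tested.

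**Figure D3:**
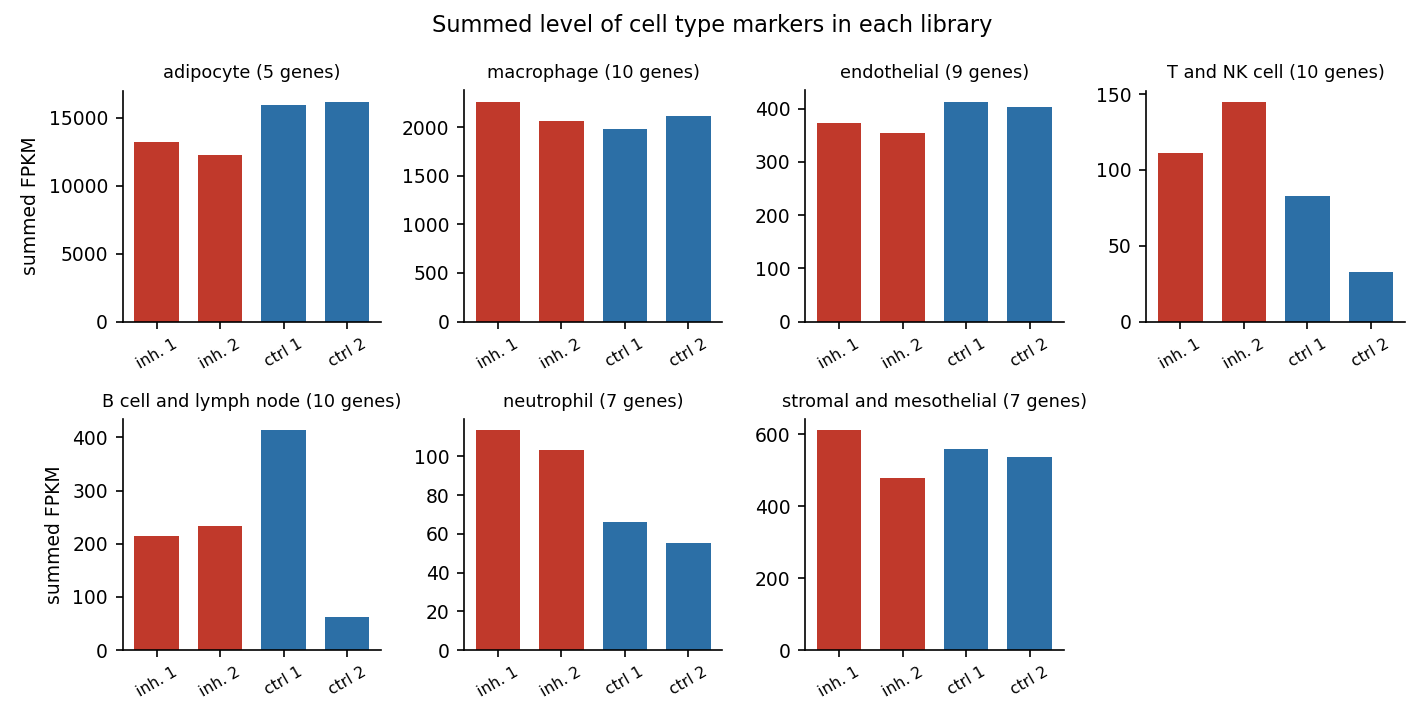
Summed FPKM of the markers of each cell type (vertical axis, from 0) in the inhibitor libraries (red) and control libraries (blue). The B cell and lymph node sum is lowest in control 2 and highest in control 1. The neutrophil sum and the T and NK cell sum are higher in both inhibitor libraries.

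Macrophages and endothelium make several of the 10 products. The 10 macrophage markers summed to 2264 and 2066 FPKM in inhibitor libraries and to 1981 and 2119 FPKM in control libraries. Cd68 rose and Cd163 fell, and at an unadjusted p under 0.05 in limma 3 were higher and 2 lower. The 9 endothelial markers summed to 374.0 and 355.2 FPKM in inhibitor libraries and to 413.4 and 402.7 FPKM in control libraries, and limma called 0 of 9 (0 higher and 1 lower at an unadjusted p under 0.05). Of the 9, 8 had negative values, and both endothelial sums were lower in the inhibitor libraries. The part of endothelial content in the Icam1 and Vcam1 values was not tested. The 5 adipocyte markers summed to 13217 and 12252 FPKM in inhibitor libraries and to 15941 and 16208 FPKM in control libraries, with 0 of 5 called (0 higher and 5 lower at an unadjusted p under 0.05 in limma). Of 7 stromal and mesothelial markers 4 were tested and 0 called (0 at an unadjusted p under 0.05 in limma), with sums of 611.8 and 477.1 FPKM in inhibitor libraries and 558.7 and 537.1 FPKM in control libraries. Upk3b, a mesothelial gene, was at 0.0759 and 0.0780 FPKM in inhibitor libraries and at 0 in both controls. Wt1 was at 0 in 3 libraries, and both genes were below the filter.

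Beyond the 10 genes, 9 lists of 103 further pathway genes were examined, of which 94 were tested. The lists share Nfkbie, Birc3, Traf1, Tnip1, Bcl3, Sele and Selp, which count once in these totals but in each list that holds them. Of the 94, 9 rose and 0 fell at an adjusted p under 0.05 in limma, or 9.57%, against the 3.22% and 0.267% of all rows (36 higher and 1 lower at an unadjusted p under 0.05). The median log2 fold change of the 94 was 0.34. Positive values were seen in 82 of them, against 60.0% of all tested rows. The lists were chosen with earlier results of these data known, so these shares are descriptive only.

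**Figure D4:**
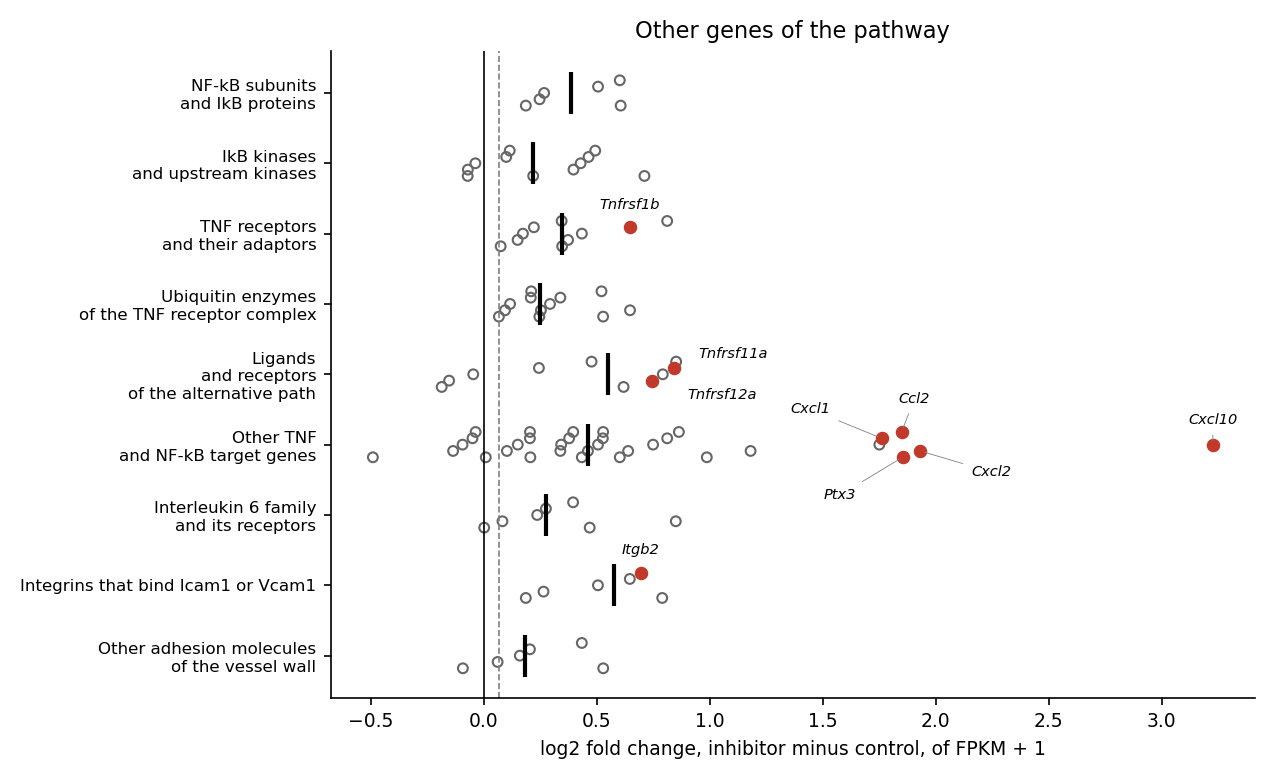
Log2 fold change, inhibitor minus control, of FPKM + 1 (horizontal axis) for each tested gene of 9 lists (rows). Red filled points passed the threshold and are named, open points did not, bars are list medians and the dashed line is the median of all tested rows. The 5 target genes that passed lie at 1.76 or more, while every gene of the other lists lies below 0.9.

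The other NF-kB subunits and IkB proteins had positive values and no calls. Limma called 0 of 6 (3 higher and 0 lower at an unadjusted p under 0.05), with a median of 0.39. Rela, the main activating subunit, had 34.9 and 35.3 FPKM in inhibitor libraries and 32.5 and 29.0 FPKM in control libraries, a difference of 0.19 ± 0.10 (adjusted p = 0.389). Nfkbib, which encodes IkB beta, had 26.6 and 24.0 FPKM in inhibitor libraries and 22.5 and 19.3 FPKM in control libraries. Its values were apart and its difference of 0.27 did not pass (adjusted p = 0.324). The list median was 0.76 with 1 gene called without control 1, and 0.22 with 0 called without control 2 (limma in both).

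The kinases gave no call. Limma called 0 of 11 (4 higher and 0 lower at an unadjusted p under 0.05), with a median of 0.22. Ikbkb, the catalytic subunit that marks IkB for breakdown, had 42.3 and 39.4 FPKM in inhibitor libraries and 32.4 and 27.9 FPKM in control libraries, a difference of 0.43 ± 0.11 (adjusted p = 0.130). Tab2, an adaptor of the kinase TAK1, had 29.6 and 32.8 FPKM in inhibitor libraries and 27.9 and 25.5 FPKM in control libraries (difference 0.22, adjusted p = 0.349).

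Of the 10 TNF receptor and adaptor genes 1 rose and 0 fell, with a median of 0.34, which was 0.20 without control 2. Tnfrsf1b encodes TNF receptor 2, found mainly on immune and endothelial cells. It had 42.5 and 42.2 FPKM in inhibitor libraries and 28.2 and 25.3 FPKM in control libraries, a difference of 0.65 ± 0.10 (adjusted p = 0.0384). Tnfrsf1a encodes TNF receptor 1, the widely made receptor, and was more abundant, at 107.1 and 108.9 FPKM in inhibitor libraries and 99.7 and 105.5 FPKM in control libraries. Its difference was 0.07 ± 0.08 (adjusted p = 0.669). Whether the receptors differed from each other was not tested. The ubiquitin enzymes and their adaptors gave 0 calls of 12 in limma (3 higher and 0 lower at an unadjusted p under 0.05), with a median of 0.25. Among them Tax1bp1, a partner of A20, had 77.0 and 81.4 FPKM in inhibitor libraries and 69.5 and 67.5 FPKM in control libraries (adjusted p = 0.270). Rbck1, a subunit of the linear ubiquitin ligase, had 58.5 and 57.8 FPKM in inhibitor libraries and 57.0 and 54.0 FPKM in control libraries (adjusted p = 0.718).

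On the alternative path, 2 of 10 tested genes rose and 0 fell, both of them receptors. Tnfrsf12a, the receptor for TWEAK, had 20.8 and 18.5 FPKM in inhibitor libraries and 11.5 and 11.1 FPKM in control libraries, a difference of 0.74 ± 0.12 (adjusted p = 0.0396). Tnfrsf11a, which encodes RANK, had 10.2 and 11.5 FPKM in inhibitor libraries and 5.36 and 5.85 FPKM in control libraries, a difference of 0.84 ± 0.14 (adjusted p = 0.0444). Both groups of values were tight and apart. The calls of Tnfrsf1b, Tnfrsf12a and Tnfrsf11a ended with quantile or upper quartile scaling, with the replicate block, with no filter, without the trend in limma and without control 2, and that of Tnfrsf11a also without control 1 (adjusted p = 0.0605). Ltb, a lymphocyte ligand of the path, had 19.1 and 26.7 FPKM in inhibitor libraries and 40.3 and 3.50 FPKM in control libraries, the same order of libraries as the summed B cell and lymph node markers. The list median of 0.55 was -0.05 without control 2. Cd40lg (0.125 and 0.389 FPKM in inhibitor libraries, 0.925 and 0.220 FPKM in control libraries) and Tnfsf11 (0.565 and 0.323 FPKM in inhibitor libraries, 0.757 and 0.110 FPKM in control libraries) were below the filter.

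Among 33 tested genes of 37 other TNF and NF-kB targets, 5 rose and 0 fell, with a median of 0.46 (19 higher and 1 lower at an unadjusted p under 0.05 in limma). All 5 encode secreted proteins, as do genes of the list that were not called, such as Il1b, Lcn2 and Mmp9. Cxcl10, a T cell chemokine that is also a strong interferon gamma target, had 94.1 and 117.2 FPKM in inhibitor libraries and 7.11 and 14.9 FPKM in control libraries, a difference of 3.23 ± 0.33 (adjusted p = 0.0130). Ccl2, the chief monocyte chemokine of fat, had 149.0 and 183.6 FPKM in inhibitor libraries and 59.0 and 34.6 FPKM in control libraries, a difference of 1.85 ± 0.26 (adjusted p = 0.0296, and 0.0678 without the trend). Ptx3, a pattern recognition protein of stromal and myeloid cells, had 23.6 and 27.9 FPKM in inhibitor libraries and 8.18 and 4.93 FPKM in control libraries, a difference of 1.85 ± 0.23 (adjusted p = 0.0216). All 3 had groups far apart. The neutrophil chemokine Cxcl1 had 20.5 and 23.6 FPKM in inhibitor libraries and 6.75 and 4.96 FPKM in control libraries, a difference of 1.76 ± 0.17 (adjusted p = 0.0126). Its neighbour in function, Cxcl2, had 11.1 and 11.2 FPKM in inhibitor libraries and 2.23 and 2.15 FPKM in control libraries, a difference of 1.93 ± 0.14 (adjusted p = 0.00812). These were the tightest values of the 5. Not every target was higher. Mmp9, a matrix protease of leukocytes, was the 1 lower at an unadjusted p, with 8.01 and 7.79 FPKM in inhibitor libraries and 13.3 and 9.95 FPKM in control libraries. Both its inhibitor values lay below both control values, and its difference of -0.49 ± 0.17 did not pass (adjusted p = 0.204). Sod2, the mitochondrial superoxide dismutase, had 57.1 and 56.6 FPKM in inhibitor libraries and 59.4 and 66.0 FPKM in control libraries (difference -0.14, adjusted p = 0.482). Without control 1 the list had 12 calls, and with no filter it had 1, Cxcl2. All 9 calls over the lists ended without inhibitor 1 and without inhibitor 2, as did every other call of the table. Ptgs2, which encodes cyclooxygenase 2, had 0.948 and 0.851 FPKM in inhibitor libraries and 0.826 and 0.533 FPKM in control libraries. It was below the filter, as were Ccl20, Csf2 and Olr1.

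Of the receptors and relatives of interleukin 6, limma called 0 of 7 tested (2 higher and 0 lower at an unadjusted p under 0.05), with a median of 0.27. Il6st, the shared signalling receptor gp130, had 48.3 and 49.5 FPKM in inhibitor libraries and 46.1 and 46.2 FPKM in control libraries (difference 0.08 ± 0.08, adjusted p = 0.649). Stat3, the factor that relays the signal, had 53.1 and 63.3 FPKM in inhibitor libraries and 42.9 and 40.4 FPKM in control libraries (difference 0.47 ± 0.12, adjusted p = 0.117). Lif (0.526 and 0.613 FPKM in inhibitor libraries, 0.522 and 0.401 FPKM in control libraries) and Il11 (listed at 0 in control 1) were below the filter.

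The integrins that bind Icam1 and Vcam1 gave 1 call of 6, with all 6 values positive and a median of 0.57, which was 0.35 without control 2. Itgb2, the beta-2 chain of the leukocyte integrins that bind Icam1, rose to 83.9 and 89.1 FPKM in inhibitor libraries, against 52.2 and 53.9 FPKM in control libraries, a difference of 0.69 ± 0.09 (adjusted p = 0.0205). The call ended with no filter (adjusted p = 0.0510 in limma) and without the trend (adjusted p = 0.0695). Itgb1, the widely made beta chain that pairs with alpha-4 to bind Vcam1, had 131.1 and 134.6 FPKM in inhibitor libraries and 114.2 and 119.3 FPKM in control libraries (difference 0.19 ± 0.08, adjusted p = 0.295). Other adhesion molecules of the vessel wall gave 0 calls of 6 in limma (1 higher and 0 lower at an unadjusted p under 0.05), with a median of 0.18, which was 0.11 without control 2 and 0.30 without inhibitor 1. Pecam1, an endothelial junction protein, had 71.4 and 65.8 FPKM in inhibitor libraries and 79.7 and 67.3 FPKM in control libraries (difference -0.09, adjusted p = 0.701). Cd34 had 109.0 and 103.3 FPKM in inhibitor libraries and 94.1 and 95.7 FPKM in control libraries (difference 0.16, adjusted p = 0.364). Madcam1, the mucosal addressin, was below the filter at 0.961 and 0.773 FPKM in inhibitor libraries and 0.494 and 0.281 FPKM in control libraries.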

How the data were processed

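RNA was profiled in 4 libraries of mouse subcutaneous white fat. Per the labels' protocols, RNA was extracted from frozen tissue with Trizol and made into directional libraries. The authors' deposited FPKM values were made with TopHat2 2.0.11 and Cufflinks 2.1.1 on mm10, per the submitters' processing notes. The sources used here name no annotation, settings or use of strand. FPKM holds no counts, so absolute depth is unknown. Relative depth is the inverse of the most common ratio to control 1 over 514 genes under 0.3 FPKM.

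These values were turned into log2(FPKM + 1). Rows averaging 1 FPKM or more entered the limma fit (version 3.58.1, R 4.3.3, eBayes with trend), inhibitor minus control, two-sided, with Benjamini-Hochberg adjustment over all of them. The standard errors rest on 2 residual and 5.29 total degrees of freedom. The code was tested on simulated data. Lists are given by counts and medians, and the genes named in each are those past the threshold or, with at most 1, also the 2 most abundant. Of markers, those called or listed at 0 are named. Ltb, Sod2, Mmp9, Ptgs2, Lif and the neutrophil markers were chosen after their values were seen. The genes and lists were chosen with earlier results of these data known. Alternatives changed the scaling, pseudocount, filter, trend, block and libraries. Coordinates and 3' untranslated regions come from GENCODE M21 (GRCm38), and promoters and miR-203 from RefSeq (GRCm38.p6).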

Additional observations from a re-analysis of the deposited data

How the results depend on the processing

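All 10 genes kept positive values under each of the 11 alternatives that tested them. For the 9 genes whose groups were apart, only a change of scaling could have turned the sign. The calls did not hold as widely. The count of the 10 genes called higher was 1, and it became 0 with no filter on low values. It was also 0 at a mean of at least 5 FPKM, where Il6 and Tnf were not tested. Leaving out 1 library moved it between 0 and 7. Over all rows, genes called higher went to 122 with no filter and 215 without the trend, against 397, and ranged between 0 and 687 with 1 library left out. Genes called lower went to 92 with quantile normalization, 55 with upper quartile scaling, 10 with no filter, 66 at a mean of at least 5 FPKM, 11 without the trend and 21 with the replicate block, against 33, and ranged between 0 and 98 with 1 library left out. The cause of these shifts was not tested. A fit without 1 library takes its spread from the other group and assumes that the lone library varies alike. With the replicate number as a block 333 rows were higher, and the same-numbered libraries did not deviate together (r = -0.006 over 12345 genes). A correlation over all genes cannot show a pairing limited to some of them, and the titles give only a number. With 2 pools a group, 2 residual degrees of freedom limit the precision.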
